A study of Canis lupus familiaris with 2 samples.

Results

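The genes described here run mitosis, from the CDK1 and cyclin switch through the spindle checkpoint to cytokinesis. They form a list of 48 gene symbols chosen by function, with the kinesin motor family left out apart from CENPE, and 47 of them are among the 23510 features in the expression files. MAD2L1, a spindle checkpoint gene, was the remaining symbol and was not analysed here. The data come from MDCK cells, an established line of canine kidney epithelium that grows as a columnar sheet. The cells were seeded on culture inserts in EMEM with 10% FCS and harvested at day 3, from 1 culture under a 2-cm-high column of medium (2 cm H2O) and 1 culture under a 50-cm-high column (50 cm H2O). They are called the 2-cm and the 50-cm culture here. No drug or genetic change was applied to either culture. The comparison asks how gene expression in proliferating epithelial cells differs under a modest static pressure load. Because each medium height is represented by 1 culture, no value below has a replicate, no test was possible, and differences are given as sizes only. RNA was measured over the whole culture, so fewer cells in mitosis and less of an RNA per mitotic cell cannot be told apart.

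Entry into mitosis is driven by CDK1 bound to cyclin B, which the CDC25 phosphatases activate, with the Polo and Aurora kinases acting alongside. The spindle checkpoint holds back the anaphase-promoting complex (APC/C), a ubiquitin ligase, until kinetochores have attached to the spindle, after which CDC20 lets it destroy securin and cyclin B. Most of these genes are transcribed late in the cell cycle under FOXM1, B-MYB and the MuvB proteins, so their RNA is abundant in dividing cultures and low in resting ones.

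The libraries showed 15125 features above 0 FPKM in the 2-cm culture and 14951 in the 50-cm culture, FPKM being sequenced fragments scaled to exon length and library size. Ratios are 50-cm over 2-cm FPKM for the 11057 features above 1 FPKM in both cultures, among which the median FPKM was 16.2 and 16.3, respectively. Read counts are not given, so the precision of a single value is unknown. The 6 epithelial markers examined (CDH1, EPCAM, KRT7, KRT8, KRT18 and KRT19) lay between 211 and 1641 FPKM in the 2-cm culture and between 216 and 1561 FPKM in the 50-cm culture. The fibroblast, endothelial and leukocyte markers that could be looked up reached at most 0.277 FPKM (KDR) in either culture, and PECAM1, PTPRC, CD3E and COL3A1 were listed at 0.

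The mitotic genes were expressed at nearly the same level under both medium heights. All 47 were above 1 FPKM in both cultures, and their ratios ran from 0.727 for CDC25C to 1.30 for CEP55. None of the 47 differed by more than 2-fold, where 1.67% of all 11057 features did, and none by more than 1.5-fold, where 7.19% of all features did. At a lower fold of 1.2, picked after it was seen that no gene passed 1.5-fold, CEP55, PLK1 and SPC24 were higher in the 50-cm culture (3 of 47, against 15.0% of all features), and CDC25C and CENPF were lower (2 of 47, against 16.9% of all features). Weakly expressed features widen those shares, and among the 8751 features above 5 FPKM in both cultures, a minimum that all 47 genes also met, 25.8% passed 1.2-fold in either direction. The shares past 1.5-fold and 2-fold were not computed for these 8751 features, so at those folds the 47 genes stand beside a more weakly expressed background. The median log2 ratio of the 47 genes was 0.03, beside 0.01 over all features and 0.04 over the features above 5 FPKM. The log2 ratios had an SD of 0.17 across the 47 genes and 0.33 across all features (0.27 above 5 FPKM). These SDs are spreads across genes, not replicate error. Of the 47 genes, 20 (42.6%) were lower in the 50-cm culture, against 47.4% of all features, and with quantile normalization of the cultures 24 were lower. No gene of the list lay outside the 5th to 95th percentile of all features, from -0.59 to 0.44 on the log2 scale. Against the 5th percentile of the features above 5 FPKM, -0.41, CDC25C at -0.46 lay outside.

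**Figure D1:**
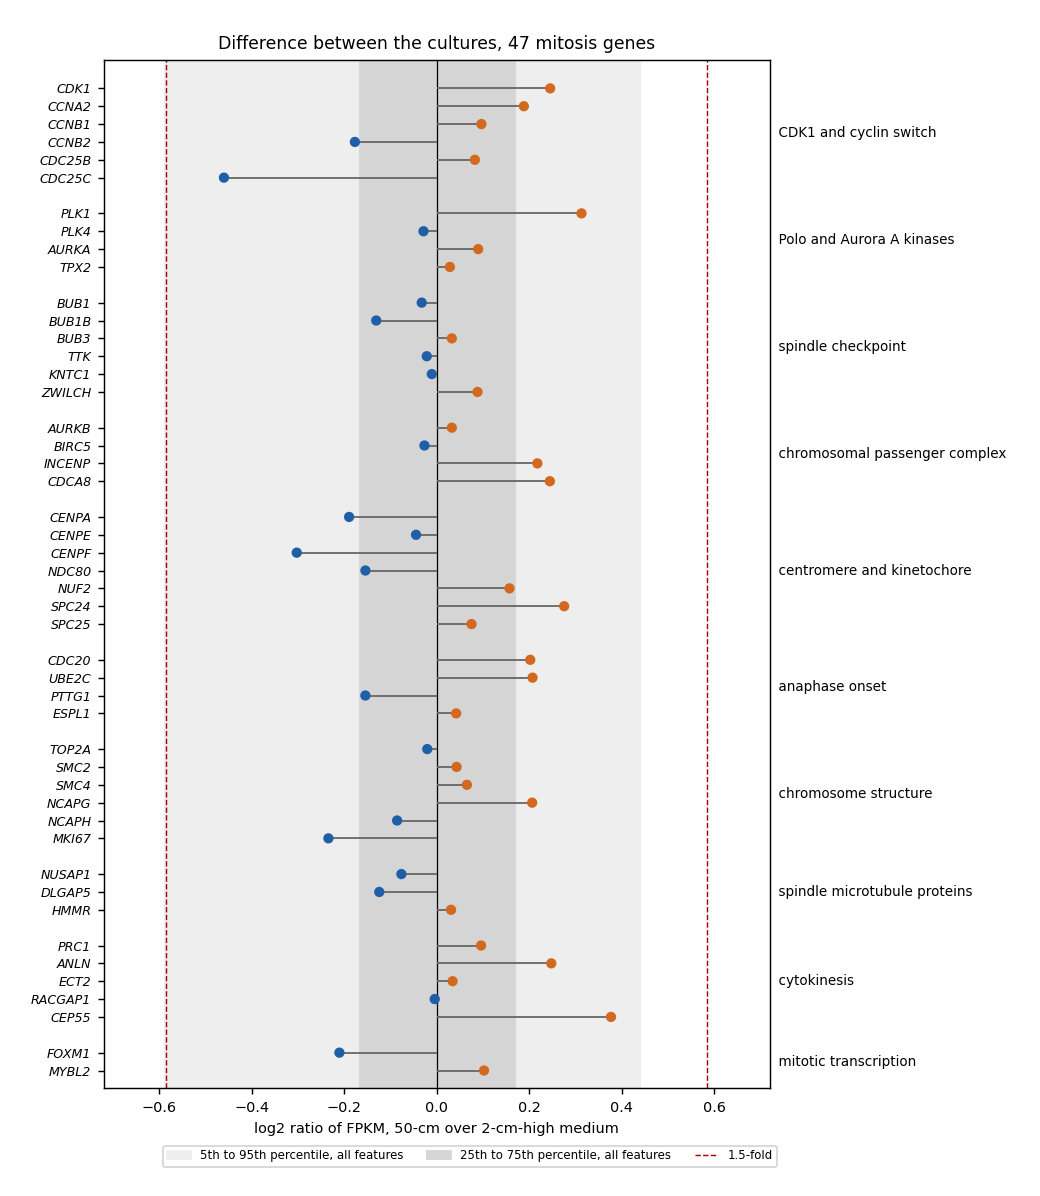
Log2 ratio of FPKM in 50-cm over 2-cm-high medium (x axis) for the 47 mitotic genes, grouped by role, with 1 culture per medium height. Orange points are higher and blue points lower in the 50-cm culture. Grey bands span the 5th to 95th and the 25th to 75th percentile of 11057 features, dashed red lines mark 1.5-fold, and every gene lies inside the dashed lines, from -0.46 (CDC25C) to 0.38 (CEP55).

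As a group the genes were abundant. Their median FPKM was 60.8 in the 2-cm culture and 60.0 in the 50-cm culture, and 42 of 47 exceeded the median feature in each culture. Together they summed to 3398 FPKM in the 2-cm culture and 3556 FPKM in the 50-cm culture, or 0.566% and 0.579% of the total. UBE2C, MYBL2 and BUB3 had the highest levels of the list in both cultures, in that order, and CDC25C and CENPE the lowest. Among the 10 highest genes, 9 were shared by the cultures: SPC24 entered the 10 in the 50-cm culture, where RACGAP1 dropped to rank 11. Over the 47 genes, log2 FPKM in the 2-cm culture had a Pearson r of 0.992 with that in the 50-cm culture, a description across genes that were sequenced in the same 2 libraries. Single genes changed places, among them MKI67, from rank 17 of the 47 to rank 25, and CCNB2, from rank 18 to rank 23. Neighbours in the order, such as BIRC5 at 156 FPKM and PTTG1 at 158 FPKM in the 2-cm culture, cannot be told apart without replicates.

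**Figure D2:**
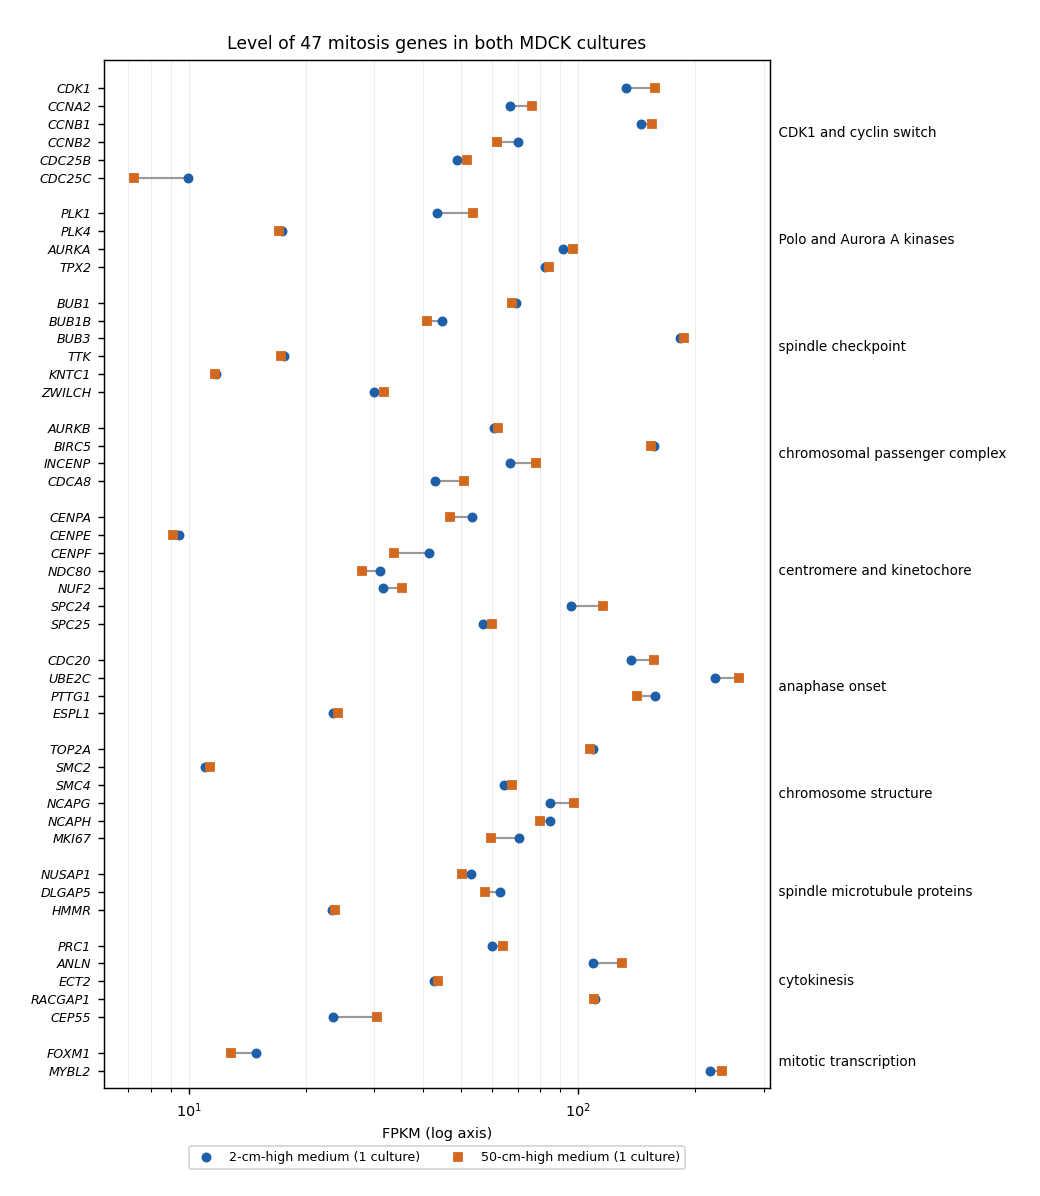
FPKM (log x axis) of the 47 mitotic genes in the 2-cm culture (blue circles) and 50-cm-high medium (orange squares), 1 culture each, grouped by role. The symbols of a gene nearly overlap for most genes, levels spread from 9.43 FPKM (CENPE) to 225 FPKM (UBE2C) in the 2-cm culture, and CDC25C and CEP55 show the widest gaps.

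The CDK1 and cyclin switch comprises 6 of the genes, of which 4 were higher and 2 lower in the 50-cm culture, with a median ratio of 1.06. Counts by role of the 47 genes cover 2 to 7 measured genes each, and 47.4% of all features were lower. CDK1, the kinase that commits a cell to mitosis, had 133 FPKM in the 2-cm culture and 158 FPKM in the 50-cm culture (ratio 1.19). CCNB1, the principal mitotic cyclin, had 145 and 155 FPKM (ratio 1.07). Its relative CCNB2 went the other way, with 70.0 and 61.9 FPKM (ratio 0.884). CCNA2, the cyclin of S phase and early mitosis, had 67.0 and 76.3 FPKM (ratio 1.14). The CDC25 phosphatases, which remove the inhibitory phosphates from CDK1, also differed from each other. CDC25B had 49.0 and 51.8 FPKM (ratio 1.06). CDC25C had 9.98 and 7.26 FPKM, a ratio of 0.727 and a log2 ratio of -0.46. This was the lowest ratio of the list, at rank 10195 of 11057, and 12.2% of all features differed by at least as much in either direction. CDC25C was also the least expressed gene of the list in the 50-cm culture.

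Among the Polo and Aurora A kinases and their activator, 3 of 4 genes were higher (2 of 4 with quantile normalization). Over all features, 47.4% were lower. PLK1, which promotes mitotic entry, centrosome maturation and chromosome segregation, had 43.4 FPKM in the 2-cm culture and 53.9 FPKM in the 50-cm culture. Its ratio of 1.24 (0.31 on the log2 scale) was the second largest of the list. PLK4, which licenses centriole duplication, had 17.4 and 17.1 FPKM (ratio 0.980). AURKA, the centrosomal Aurora kinase, had 91.5 and 97.4 FPKM (ratio 1.06). TPX2, which activates AURKA on spindle microtubules, had 82.5 and 84.1 FPKM (ratio 1.02). PLK1 thus differed most among these 4 genes.

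The spindle checkpoint genes had the narrowest range of ratios among the role groups with 5 or more measured genes. The 6 measured genes had ratios from 0.913 to 1.06 and a median ratio of 0.989, with 2 higher and 4 lower in the 50-cm culture (1 and 5 with quantile normalization). BUB3, which carries BUB1 and BUBR1 to kinetochores, was the most abundant, with 183 and 187 FPKM (ratio 1.02). BUB1, a checkpoint kinase, had 69.2 and 67.7 FPKM (ratio 0.978). BUB1B, which encodes the checkpoint protein BUBR1, had 44.9 and 41.0 FPKM (ratio 0.913). TTK, the MPS1 kinase at the head of the checkpoint, had 17.6 and 17.3 FPKM (ratio 0.985). KNTC1 and ZWILCH encode subunits of the RZZ complex, which brings checkpoint proteins to unattached kinetochores. KNTC1 had 11.8 and 11.7 FPKM (ratio 0.993), and ZWILCH had 30.0 and 31.8 FPKM (ratio 1.06). Summed over the 6 genes, the level was 356 FPKM in the 2-cm culture and 357 FPKM in the 50-cm culture.

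The chromosomal passenger complex corrects faulty attachments and later acts at the midzone, and its 4 genes split into 2 that were nearly equal and 2 that were higher. AURKB, its kinase, had 60.8 FPKM in the 2-cm culture and 62.2 FPKM in the 50-cm culture (ratio 1.02). BIRC5, which encodes survivin, had 156 and 154 FPKM (ratio 0.982). INCENP, the scaffold, had 67.0 and 78.0 FPKM (ratio 1.16). CDCA8, which encodes borealin, had 43.0 and 51.0 FPKM (ratio 1.18). INCENP and CDCA8 kept nearly the same level relative to each other, at 1.56 in the 2-cm culture and 1.53 in the 50-cm culture.

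The centromere and kinetochore genes went in both directions, with 3 of 7 higher and 4 lower (4 and 3 with quantile normalization), and their log2 ratios spanned -0.30 to 0.28. CENPF, a large protein of the outer kinetochore corona that peaks in G2 and mitosis, had 41.5 and 33.6 FPKM, a ratio of 0.811 and the second lowest of the list. CENPA, the histone H3 variant that marks centromeres, had 53.5 and 46.9 FPKM (ratio 0.877). CENPE, a kinesin motor that aligns chromosomes, had 9.43 and 9.14 FPKM (ratio 0.969). The remaining 4 genes encode the Ndc80 complex, which binds microtubule ends and whose subunits work as 1 rod. Its outer end is formed by NDC80, with 31.0 and 27.8 FPKM (ratio 0.899), and NUF2, with 31.6 and 35.3 FPKM (ratio 1.12). Its inner end is formed by SPC24, with 95.9 and 116 FPKM (ratio 1.21), and SPC25, with 57.0 and 60.0 FPKM (ratio 1.05). NDC80 was thus lower and its 3 partner subunits higher in the 50-cm culture.

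At anaphase onset, 3 of 4 genes were higher in the 50-cm culture, where 47.4% of all features were lower. CDC20, the activator through which the checkpoint controls the APC/C, had 136 and 157 FPKM (ratio 1.15). UBE2C, the ubiquitin-conjugating enzyme that works with that complex, had 225 and 260 FPKM (ratio 1.15). PTTG1, which encodes securin, the inhibitor of separase, had 158 and 142 FPKM (ratio 0.898). ESPL1, which encodes separase, the protease that opens cohesin rings, had 23.5 and 24.2 FPKM (ratio 1.03). CDC20 and UBE2C kept nearly the same level relative to each other (0.607 in the 2-cm culture and 0.605 in the 50-cm culture), whereas the level of PTTG1 relative to ESPL1 went from 6.72 to 5.86.

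Genes of chromosome structure were evenly divided, with 3 higher and 3 lower and a median ratio of 1.008. MKI67, which encodes the proliferation marker Ki-67 that coats mitotic chromosomes, had 70.5 and 59.9 FPKM (ratio 0.850). TOP2A, the topoisomerase that untangles sister DNA, had 109 and 107 FPKM (ratio 0.986). SMC2 and SMC4 are the ATPase core of condensin, which compacts mitotic chromosomes. SMC2 had 11.01 and 11.35 FPKM (ratio 1.03), and SMC4 had 64.6 and 67.6 FPKM (ratio 1.05). The condensin I subunits NCAPG and NCAPH had equal levels in the 2-cm culture, 84.5 and 84.6 FPKM. In the 50-cm culture NCAPG had 97.5 FPKM (ratio 1.15) and NCAPH had 79.7 FPKM (ratio 0.942).

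The genes for spindle microtubule proteins were close to equality, with 1 of 3 higher (none with quantile normalization). NUSAP1, which bundles spindle microtubules, had 53.2 FPKM in the 2-cm culture and 50.5 FPKM in the 50-cm culture (ratio 0.948). DLGAP5, which stabilises kinetochore fibres, had 62.9 and 57.7 FPKM (ratio 0.917). HMMR, which helps to position the spindle and binds TPX2, had 23.3 and 23.8 FPKM (ratio 1.02).

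Cytokinesis genes held the largest ratio of the list, and 4 of 5 were higher in the 50-cm culture (3 of 5 with quantile normalization). As reported, 20.0% of these 5 genes were lower, against 47.4% of all features. CEP55, which recruits the abscission machinery to the midbody, had 23.5 FPKM in the 2-cm culture and 30.5 FPKM in the 50-cm culture. Its ratio of 1.30 (0.38 on the log2 scale) had rank 825 of 11057, and 18.2% of all features differed by at least as much in either direction. ANLN, which encodes anillin, a scaffold that ties actin and septins into the contractile ring, had 110 and 130 FPKM (ratio 1.19). PRC1, which bundles the antiparallel microtubules of the midzone, had 60.0 and 64.1 FPKM (ratio 1.07). ECT2 and RACGAP1 form the module that activates RHOA at the division plane. ECT2 had 42.7 and 43.7 FPKM (ratio 1.02), and RACGAP1 had 110 FPKM in both cultures (ratio 0.997), the smallest difference of the list.

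The transcription factors of the program differed in sign. FOXM1, which drives the late mitotic genes, had 14.9 and 12.9 FPKM (ratio 0.864). MYBL2, which encodes B-MYB, had 218 and 234 FPKM (ratio 1.07). In the 2-cm culture MYBL2 thus stood 14.6 times above FOXM1 and in the 50-cm culture 18.2 times.

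Ratios between genes within a culture are not changed by a single scale factor per library, although quantile normalization does change them, and 21 pairs of partners or relatives were compared in this way. The pairs were drawn up with the values of the genes already known. Of the pairs shown here, CDC25B over CDC25C moved most, from 4.90 in the 2-cm culture to 7.14 in the 50-cm culture, a change of 1.46-fold. SPC24 over NDC80 went from 3.095 to 4.17 (1.347-fold), and PLK1 over PLK4 from 2.49 to 3.16 (1.27-fold). CCNB1 over CCNB2 went from 2.07 to 2.50 (1.21-fold), and NCAPG over NCAPH from 0.999 to 1.22 (1.22-fold). Other partners kept their balance. AURKA over AURKB was 1.51 and 1.57, AURKA over its activator TPX2 was 1.11 and 1.16, and SMC2 over SMC4 was 0.170 and 0.168.

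**Figure D3:**
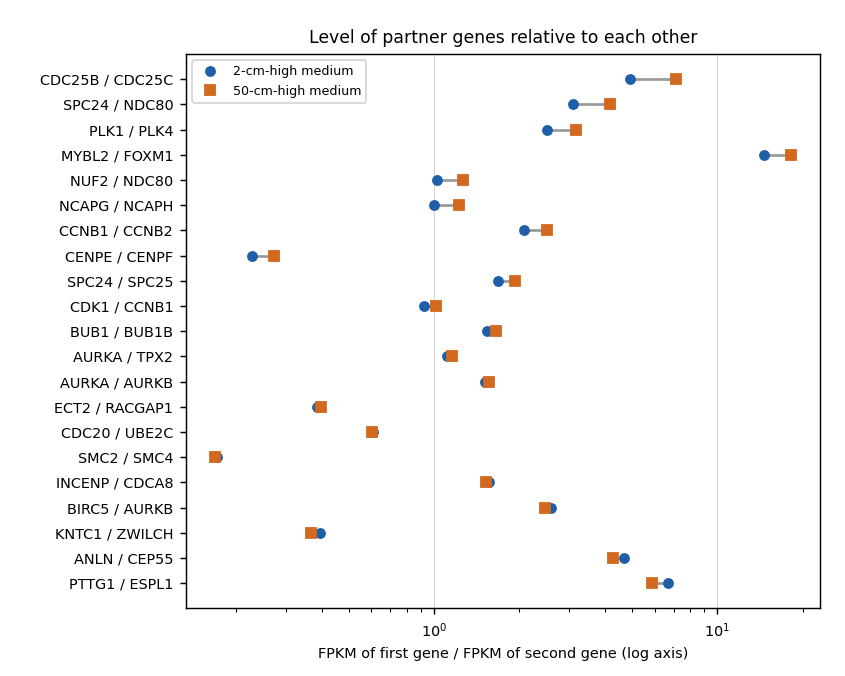
FPKM of a gene divided by FPKM of its partner or relative (log x axis) for 21 pairs, in the 2-cm culture (blue circles) and 50-cm-high medium (orange squares), 1 culture each, sorted by the change. The pair CDC25B over CDC25C at the top moved from 4.90 to 7.14, and PTTG1 over ESPL1 at the bottom from 6.72 to 5.86.

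Further genes of the same machinery were listed by complex, with earlier results of these data already known. Measured in the same 2 libraries, they gave a similar picture. Of 87 listed genes, 84 were in the files and all 84 were above 1 FPKM in both cultures. Their median log2 ratio was 0.04, with 51 higher and 33 lower in the 50-cm culture (48 and 36 with quantile normalization). As reported, 39.3% of the 84 were lower, against 47.4% of all features. By complex, 60.0% of the cohesin list and 35.7% of the other kinetochore and checkpoint genes were lower, beside the same 47.4%. UBE2S alone passed 1.5-fold, against 7.19% of all features. It encodes the enzyme that extends ubiquitin chains on APC/C substrates after UBE2C has started them, and had 180 and 285 FPKM (ratio 1.58). The other 16 genes for APC/C subunits and regulators had ratios between 0.855 and 1.24, and the median log2 ratio of all 17 was 0.04 (-0.01 with quantile normalization). Cohesin and its regulators had ratios from 0.879 (RAD21) to 1.06 (SMC3), with 4 of 10 higher (5 with quantile normalization). The other condensin subunits ran from 0.903 (NCAPD2) to 1.21 (NCAPG2), and the 28 other kinetochore and checkpoint genes from 0.875 (CENPI) to 1.23 (MIS18A), with 18 of 28 higher (15 with quantile normalization). Among regulators of mitotic entry and exit, CDC25A, the CDC25 phosphatase that also acts at the start of S phase, had the highest ratio, with 15.5 and 22.2 FPKM (1.43). BORA, the cofactor with which AURKA activates PLK1, had the lowest, with 20.1 and 15.2 FPKM (ratio 0.755). The MuvB and DREAM list includes genes of the DREAM complex, which represses cell cycle genes in resting cells. In this list E2F4 had the highest ratio, with 51.5 and 68.5 FPKM (1.33), and E2F5 the lowest, with 26.0 and 18.96 FPKM (0.728).

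Related lists were measured in the same 2 libraries and are therefore not independent. The 12 mitotic kinesins, motors of the same stage of the cell cycle, had a median log2 ratio of 0.06, with 8 higher and 4 lower (7 and 5 with quantile normalization). As reported, 33.3% of the kinesins were lower, against 47.4% of all features. KIF2C, a microtubule depolymerase of the kinetochore, had their highest ratio, with 31.7 and 43.6 FPKM (1.37), and KIF20B the lowest (0.923). The 39 DNA replication genes had a median log2 ratio of 0.20, and 35 of them were higher in the 50-cm culture under each scaling tried. Lower in that culture were 10.3% of them, against 47.4% of all features. None of the 39 passed 1.5-fold, where 7.19% of all features did. ORC1, the large subunit of the origin recognition complex, had the highest ratio of that list, with 19.6 and 27.8 FPKM (1.42), and ORC3 the lowest, with 27.1 and 23.0 FPKM (0.851). All 8 G1 cyclins and their kinases were higher, with a median log2 ratio of 0.34, where 47.4% of all features were lower. CCND1, which encodes cyclin D1, had 45.7 and 107 FPKM (ratio 2.35). It was the single gene of these lists past 2-fold, against 1.67% of all features. The mitotic genes, with a median of 0.03 on the same scale, thus lay below the replication and G1 lists and near the median of all features. Whether the lists differ from each other was not tested, since 1 culture per medium height allows none.

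**Figure D4:**
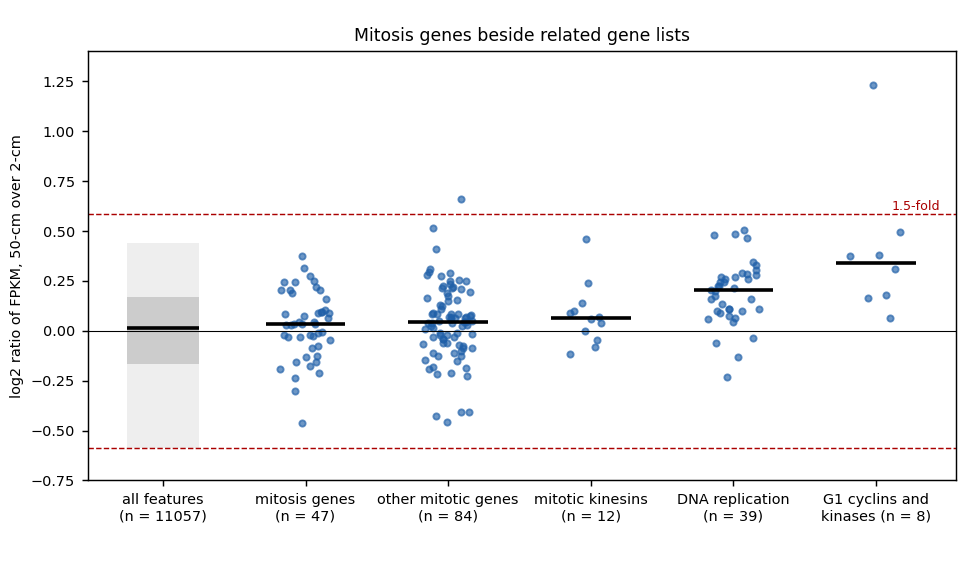
Log2 ratio of FPKM in 50-cm over 2-cm-high medium (y axis) for single genes (points) of 5 lists, with the list median as a black bar; for all 11057 features the bar is the median and the boxes span the 25th to 75th and the 5th to 95th percentile. Medians are 0.03 for the 47 mitotic genes, 0.20 for DNA replication and 0.34 for the G1 list, whose topmost point is CCND1 at 1.23.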

How the data were processed

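Per the study's methods and the submitters' processing notes, a stranded mRNA kit was used, reads of 75 bases from 1 end were aligned by the authors with TopHat2 2.0.13, Bowtie2 2.2.3 and SAMtools 0.1.19 (build CanFam3.1), and Cuffnorm 2.2.1 gave the deposited FPKM values. The annotation, the library scaling and the handling of reads shared by near-identical genes are not given in the sources used here. Depth is unknown. Of 574 features detected below 0.1 FPKM in each culture, 219 gave a ratio within 0.2% of 1.098, a step that 1 read per culture would leave, although reads were not counted here.

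Genes were matched by symbol, with older symbols for WAPL, SGO1, SGO2, CENPU and KNL1. No pseudocount was added, and a feature entered with over 1 FPKM in each culture. The members and lists were chosen with earlier results of these data known. Every member could be named; in other lists, the genes past 1.5-fold or, failing that, the highest and lowest ratio. Alternatives were minima of 5, 0.1 and 0 FPKM, pseudocounts of 0.1 and 1, recentring on the median and quantile normalization. A planned promoter motif search needs sequences that were not used here. Computations used Python 3.11.15 with numpy 2.4.6, pandas 2.3.3 and matplotlib 3.10.9. They were tried on simulated data, where recovery of planted changes past 2-fold was checked and smaller changes were not planted.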

Additional observations from a re-analysis of the deposited data

How the results depend on the processing

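The counts past 2-fold and past 1.5-fold stayed at 0 of 47 genes under all 7 alternatives. The minima of 5, 0.1 and 0 FPKM could not change any count of these genes, since all 47 exceeded 5 FPKM in both cultures. A pseudocount can only bring a ratio closer to equality and cannot change its sign. The count past 1.2-fold, added after the data were seen, was 5 as reported and 4 after recentring or with quantile normalization. The median log2 ratio of the 47 genes was 0.03 as reported, 0.02 after recentring on the median of all features and -0.0059 with quantile normalization, so its sign depends on the scaling. The number of genes lower in 50-cm-high medium was 20 under 6 alternatives and 24 with quantile normalization, where TPX2, BUB3, AURKB, HMMR and ECT2 became lower and CENPE higher. No log2 ratio of a single gene moved by more than 0.0854 under any of these settings. Quantile normalization also turned the median of the centromere and kinetochore genes from -0.04 to 0.01, that of the APC/C subunits and regulators from 0.04 to -0.01, and that of the genes for chromosome structure from 0.01 to -0.03, the last also with recentring (-0.0035). No paired analysis was possible because each medium height has 1 culture, and for the same reason no replicate could be left out. Neither read counts nor exon lengths were used here, so the precision of single genes could not be ranked.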

Other observations

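Within the 47 mitotic genes, fewer of the higher-level genes than of the lower-level genes were lower in 50-cm-high medium. Of the 24 genes with the higher mean log2 FPKM, 8 were lower in 50-cm-high medium and their median log2 ratio was 0.08. Of the other 23 genes, 12 were lower and the median was -0.01. Among all 11057 features above 1 FPKM in both cultures, 47.4% were lower, and no share was computed for features at matching levels. The median log2 ratio over all features was 0.01 above 1 FPKM and 0.04 above 5 FPKM in both cultures. Whether the pattern is particular to the mitotic genes was not tested. The Spearman correlation between the mean log2 FPKM of a gene and its log2 ratio was 0.323 over the 47 genes, which share both libraries and their scaling. It was computed after the values had been seen. No replicate library was available to measure it, and it was not recomputed after quantile normalization.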
